A study of Drosophila melanogaster with 8 samples.

Results

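Pepck1 and 9 other genes that set the direction of sugar flow were followed in RNA from fly heads. The genes were Pepck1, Pepck2, fbp, Hex-A, Hex-C, Pgi, Pfk, Tps1, Treh and Glyp. They were found by their symbols in the platform annotation, where 9 were spelled as listed and the glycogen phosphorylase gene was spelled Glyp, with GlyP as a synonym in the RefSeq gene table. Each gene was read by 1 probe set (several short probes combined into a single value), so they made up 10 of the 18952 probe sets on the Affymetrix Drosophila Genome 2.0 array. Values are log2 intensities, and a step of 1 is a 2-fold difference. The lowest value on every array was 2.32, which marks background.

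The 8 arrays cover 4 strains of Drosophila melanogaster with 1 array each at ZT16 (16 h after lights on, in the dark phase) and at ZT4 (4 h after lights on). The adults had spent 3 days in cycles of 12 h light and 12 h dark, and their heads were taken from frozen flies. The knockout strain has the genotype w1118 ; mir959-962-KO, in which miRNA genes 959 to 962 of the 959-964 cluster are deleted, and its control is w1118. The overexpression strain is yw ; tim-gal4, UAS-mir-cluster/CyO, in which the promoter of the clock gene tim drives a transgene of the cluster through GAL4. Its control is yw ; tim-gal4/CyO. Both yw strains thus carry the driver and the second-chromosome balancer CyO, and 9 of the 10 sugar genes lie on the second chromosome, Hex-A being on the X. The labels give no age or sex and no number of flies per sample. By its title, the study asks what the cluster does for rhythmic behaviour such as feeding.

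Glycolysis breaks glucose down. A hexokinase traps glucose as glucose-6-phosphate, the isomerase Pgi turns it into fructose-6-phosphate, and phosphofructokinase, encoded by Pfk, commits it to breakdown. Gluconeogenesis runs the other way, with phosphoenolpyruvate carboxykinase (Pepck) and fructose-1,6-bisphosphatase (fbp) bypassing the irreversible steps. Insects carry sugar in the blood as trehalose, which the fat body makes with Tps1 and tissues split with trehalase (Treh), and glycogen phosphorylase (Glyp) releases the glycogen store. The fat body also lies inside the head, around the brain.

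Markers of head tissue were present on all 8 arrays. All 6 photoreceptor and all 6 glial genes measured, and 6 to 8 of 8 neuronal genes, had log2 values of at least 4. Markers of organs outside the head were high on 2 arrays, knockout ZT16 and tim-gal4 control ZT16. The log2 summed level of 12 gut enzymes was 11.22 and 12.09 there, and 5.92 on each of the other 6. For 11 testis genes it was 10.38 and 10.4 there and at most 5.9 on the others, and for 11 accessory gland genes 13.6 and 12.9 against at most 6.23. The 9 ovary and eggshell genes were at background on every array. The part of this tissue in the results below was not tested. Of the 8300 probe sets kept for the fits below, 372 had levels on both of these arrays that exceeded every other array by 2-fold or more. None was a sugar gene. With so small a share of all probe sets, this says little about 10 genes. No call of a sugar gene between strains held when both arrays were left out. That fit has 1 array each of the knockout and the tim-gal4 control, so it cannot decide whether the calls rest on body tissue. The knockout difference of Pepck1 was 1.96 with all 8 arrays and 2.14 in that fit. The differences between strains and between times were all computed without these 2 arrays as well. Too few arrays were then left to test how time changes differed.

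Pepck1 was the sugar gene with the largest spread. Its log2 value was 12.43 at ZT16 and 12.48 at ZT4 in the knockout, against 10.5 and 10.49 in w1118. It was 10.97 at ZT16 and 10.34 at ZT4 under overexpression, against 13.03 and 12.76 in the tim-gal4 control. The knockout and the tim-gal4 control were thus the high strains, w1118 and overexpression the low ones, and no array of the high strains overlapped the low ones. The distance from the highest to the lowest array was 2.69 on the log2 scale, or 6.5-fold. By strain means the order was tim-gal4 control, knockout, overexpression and w1118. The first 3 did not overlap in their arrays, while overexpression and w1118 did.

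**Figure D1:**
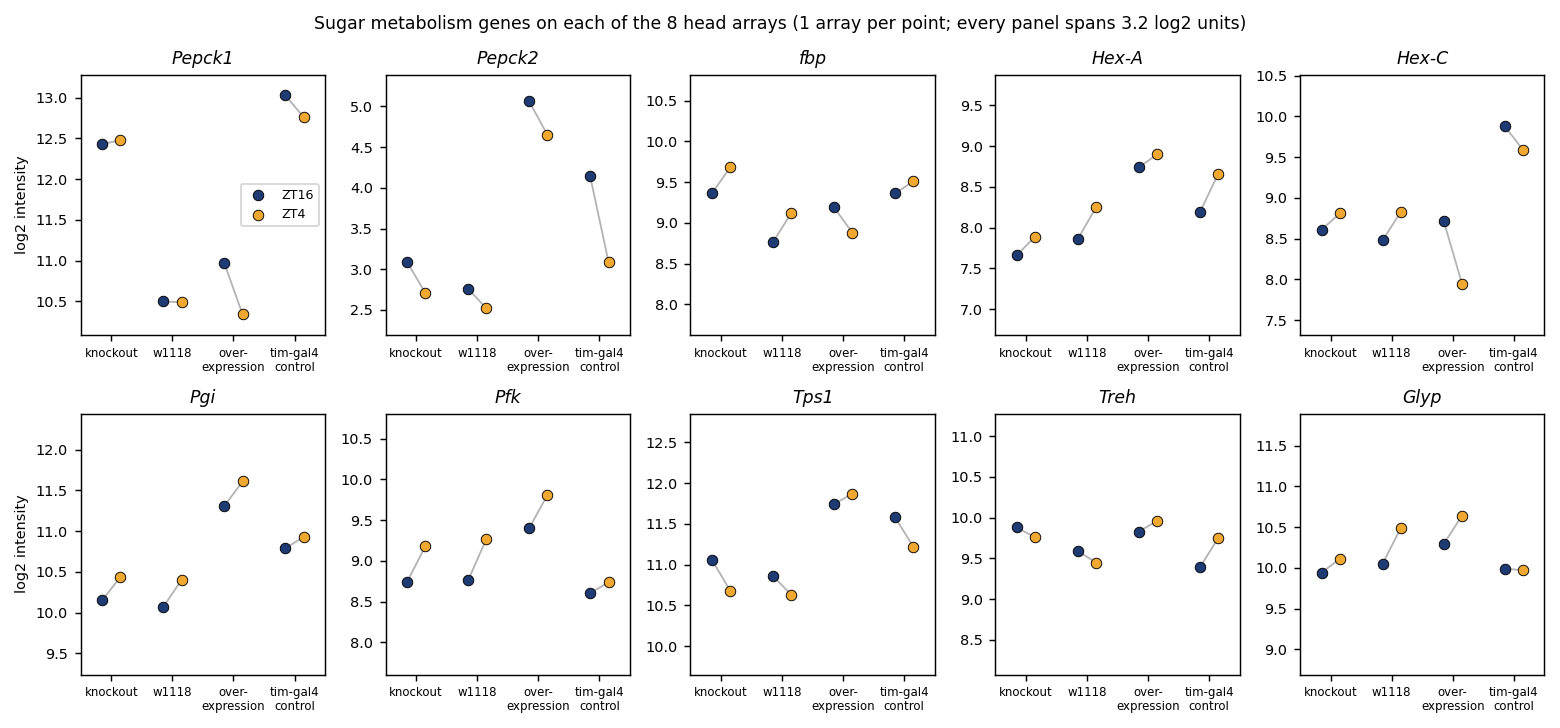
Log2 intensity of the 10 sugar genes on each of the 8 arrays, with strain on the horizontal axis and a line joining the ZT16 (dark) and ZT4 (light) arrays of a strain. Pepck1 lies between 12.43 and 13.03 in the knockout and the tim-gal4 control and between 10.34 and 10.97 in the other strains, while Pfk, Pgi, Hex-A and Tps1 are highest under overexpression.

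Deletion of part of the cluster was compared with w1118 first. Differences were fitted with limma over the 8300 probe sets that reached 4 on the log2 scale in 2 or more arrays, with a model of strain plus time. With 1 array per condition, the error term, on 3 residual degrees of freedom, comes from how unevenly the strains changed between the times, and a gene is called at a Benjamini-Hochberg adjusted p under 0.05. Of the 10 sugar genes, 1 rose, 0 fell and 9 were not called. In this comparison 1.58% of all probe sets were called, 0.759% as higher and 0.819% as lower. The median difference of the 10 was 0.10, and that of all probe sets was -0.10, both on the log2 scale.

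The gene that rose was Pepck1, which was 3.9-fold higher in the knockout (log2 difference 1.96, SE 0.19, adjusted p = 0.0161 in limma). The single-array difference was 1.94 at ZT16 and 1.99 at ZT4, so the dark and the light pair gave nearly the same size. This call depended on the arrays and probe sets fitted. It was lost without either w1118, either knockout or either tim-gal4 control array (adjusted p between 0.0634 and 0.179 in limma), without the 2 arrays with body-tissue markers (0.476), with the 4 arrays of this comparison alone (0.182) and with no filter on low values (0.156). The log2 difference itself stayed between 1.79 and 2.14 in all 16 alternatives, several of which cannot change it.

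The paralog Pepck2 encodes a second phosphoenolpyruvate carboxykinase, and 1 annotated gene separates it from Pepck1. It stayed near background in this pair, at 3.09 and 2.71 in the knockout against 2.76 and 2.52 in w1118 (ZT16 and ZT4), and was not called. The gene fbp had 9.36 at ZT16 and 9.68 at ZT4 in the knockout, against 8.76 and 9.12 in w1118. Both knockout arrays lay above both w1118 arrays, with a log2 difference of 0.58 (SE 0.19) that was not called (adjusted p = 0.296 in limma).

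Hexokinase transcripts gave no call. Hex-A, the hexokinase of flight muscle, read 7.66 and 7.89 in the knockout against 7.86 and 8.25 in w1118 (difference -0.28, SE 0.12, adjusted p = 0.383 in limma). Hex-C, a hexokinase of the fat body, read 8.61 and 8.81 against 8.48 and 8.83, and the ranges overlapped. Pgi and Pfk differed by 0.06 and -0.05, with SE of 0.11 and 0.13, and also overlapped. The largest of these hexose-step differences, -0.28 in Hex-A, stands beside 1.96 in Pepck1. For trehalose and glycogen, Tps1 differed by 0.13 (SE 0.16), Treh by 0.30 (SE 0.16) and Glyp by -0.25 (SE 0.14), none of them called.

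Overexpression was compared with the tim-gal4 control next. Here 3 sugar genes rose, 2 fell and 5 were not called, where 20.5% of all probe sets were called, 14.3% as higher and 6.18% as lower. Among the 3, Pepck2 adds nothing to this count, since it passed the filter only through the overexpression arrays and the tim-gal4 control ZT16 array. The median difference of the sugar genes was 0.41 and that of all probe sets 0.10 on the log2 scale. Pepck1 was 4.71-fold lower in the flies with the transgene (log2 difference -2.24, SE 0.19, adjusted p = 0.00484 in limma). The single-array differences were -2.06 at ZT16 and -2.41 at ZT4. This call held in 14 of 16 alternatives, with differences between -2.51 and -1.96. It was lost without the 2 arrays with body-tissue markers (difference -2.26, adjusted p = 0.127 in limma) and with the 4 arrays of this comparison alone (adjusted p = 0.0717 in limma).

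Hex-C also fell, to 8.72 at ZT16 and 7.95 at ZT4 under overexpression, against 9.88 and 9.59 in the tim-gal4 control. The arrays did not overlap, and the log2 difference was -1.40 (SE 0.29, adjusted p = 0.0294 in limma). The other hexokinase moved the opposite way without a call. Hex-A read 8.74 and 8.9 under overexpression against 8.19 and 8.66 in its control, a difference of 0.40 (SE 0.12, adjusted p = 0.0773 in limma). The bisphosphatase gene fbp read 9.19 and 8.88 against 9.36 and 9.51, with no overlap and no call (difference -0.40, SE 0.19, adjusted p = 0.197 in limma).

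The rises were in Pfk, Pgi and Pepck2. Pfk, the committed step of glycolysis, read 9.4 at ZT16 and 9.81 at ZT4 under overexpression, against 8.6 and 8.74 in the tim-gal4 control. That is 1.91-fold higher (log2 difference 0.93, SE 0.13, adjusted p = 0.0117 in limma). Pgi read 11.31 and 11.61 against 10.79 and 10.93, 1.51-fold higher (0.60, SE 0.11, adjusted p = 0.0209 in limma). Neither gene's arrays overlapped between the strains.

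Pepck2 read 5.06 at ZT16 and 4.65 at ZT4 under overexpression, against 4.14 and 3.09 in the tim-gal4 control. Its log2 difference was 1.24 (SE 0.21, adjusted p = 0.0200 in limma). It reached a value of 4 only on these overexpression arrays and the tim-gal4 control ZT16 array, which is how it passed the filter, and near background the size of a difference is not quantitative. Of the 3 rises, those of Pfk and Pgi were measured well above background in both strains.

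The trehalose and glycogen genes were not called. Tps1 read 11.74 and 11.87 under overexpression against 11.58 and 11.22 in its control, a difference of 0.41 (SE 0.16, adjusted p = 0.137 in limma). Glyp read 10.29 and 10.64 against 9.99 and 9.97 (0.49, SE 0.14, adjusted p = 0.0729 in limma), and Treh 9.83 and 9.96 against 9.39 and 9.75 (0.32, SE 0.16, adjusted p = 0.211 in limma). In each of these 3 genes both overexpression arrays were above both control arrays. How many of all probe sets separate a pair of strains in this way was not counted, here or for the genes above. Such separation is therefore only a description and sets none of these genes apart. The count of 5 called sugar genes was 3 without either knockout array or the tim-gal4 control ZT16 array. It was 1 without the tim-gal4 control ZT4 array or either overexpression array, and 0 without the 2 arrays with body-tissue markers. Over 16 alternatives the calls of Pfk and Pepck2 held in 10 each, that of Pgi in 8 and that of Hex-C in 7.

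**Figure D2:**
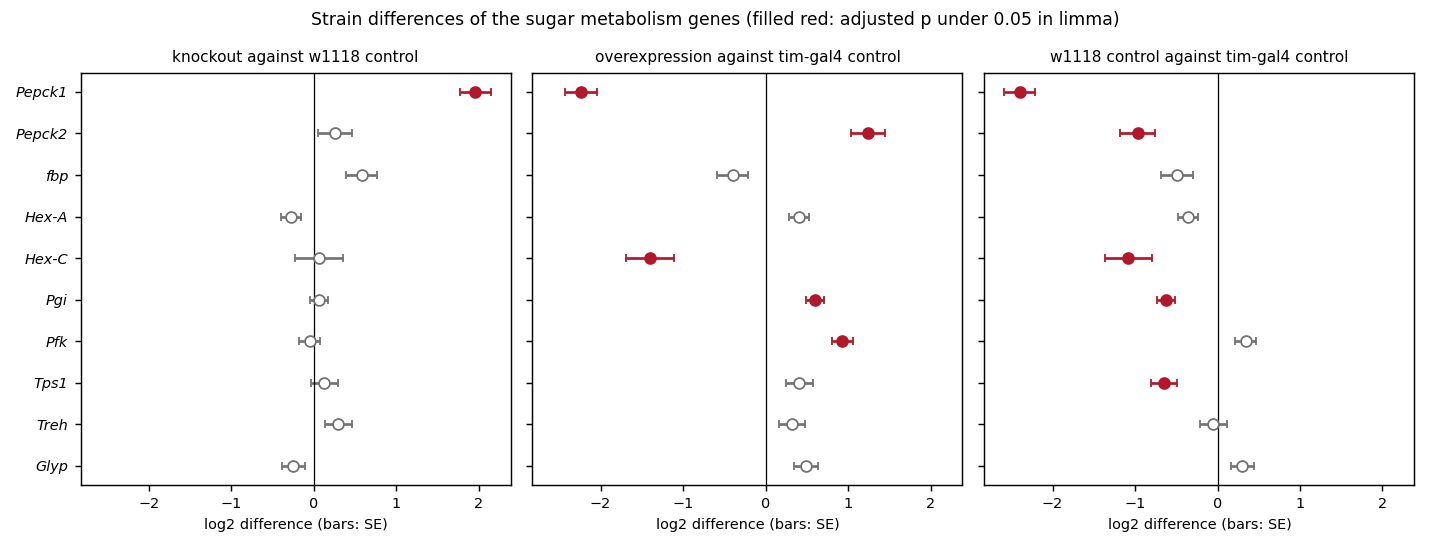
Log2 difference of each sugar gene, with its standard error, in 3 comparisons of strains fitted with limma; filled red points have an adjusted p under 0.05. Pepck1 is at 1.96 in the knockout comparison and at -2.24 in the overexpression comparison, and it is at -2.40 between the 2 controls.

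The 2 control strains, which carry no change to the cluster and differ in background, driver and balancer, differed in these genes as well. In w1118, 5 of the 10 sugar genes were lower than in the tim-gal4 control, 0 were higher and 5 were not called, where 30.9% of all probe sets were called, 11% as lower and 19.9% as higher. Pepck1 had a log2 difference of -2.40 (SE 0.19, adjusted p = 0.00224 in limma), beside 1.96 in the knockout and -2.24 under overexpression against their own controls (SE 0.19 each). The others were Hex-C (-1.08, SE 0.29, adjusted p = 0.0425), Pepck2 (-0.97, SE 0.21, 0.0261), Tps1 (-0.65, SE 0.16, 0.0337) and Pgi (-0.63, SE 0.11, 0.0131). For Pepck2 the size is not quantitative, since w1118 read 2.76 and 2.52, near background, and this call held in only 4 of 16 alternatives. Its call adds nothing to the count of 5, since it passed the filter only through the overexpression arrays and the tim-gal4 control ZT16 array. The count of called sugar genes was 1 without either w1118 array or the tim-gal4 control ZT16 array and 2 without either knockout array. It was 3 without the tim-gal4 control ZT4 array and 0 without the 2 arrays with body-tissue markers. The w1118 arrays serve in both this and the knockout comparison and the tim-gal4 control arrays in both this and the overexpression comparison, so the comparisons are not independent.

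Set against all strains, Pepck1 and Hex-C under overexpression lay at or near the w1118 level. For Pepck1 the 10.97 and 10.34 of overexpression enclosed the 10.5 and 10.49 of w1118. For Hex-C the 8.72 and 7.95 of overexpression overlapped the 8.48 and 8.83 of w1118, and the tim-gal4 control was above all the other arrays. Pfk, Pgi, Hex-A, Tps1 and Pepck2 had another pattern, with both overexpression arrays above all of the other 6. That pattern held for these 5 sugar genes and for 22.0% of all probe sets. Pepck2 adds nothing to this count, since it passed the filter only through the overexpression arrays and the tim-gal4 control ZT16 array. No sugar gene had both overexpression arrays below the rest, as 10.7% of all probe sets did. Both tim-gal4 control arrays were above the rest for Pepck1 and Hex-C (5.61% of all probe sets) and below the rest for Pfk (13.6%). No sugar gene had both knockout arrays above or below the other 6 (2.95% and 8.12% of all probe sets), or both w1118 arrays (14.8% and 4.33%). Outside overexpression, the highest value of the 5 genes was in w1118 for Pfk (9.27) and in the tim-gal4 control for the others, at 10.93 for Pgi, 8.66 for Hex-A, 11.58 for Tps1 and 4.14 for Pepck2. The reverse pattern of Pepck1, with all 4 knockout and tim-gal4 control arrays above all 4 w1118 and overexpression arrays, was shared by fbp and by 1.4% of all probe sets. For fbp the margin was narrow, since its lowest array in the high strains read 9.36 and its highest in the low strains 9.19.

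Fat body markers were read beside these genes. Of 10 such genes on the array, 9 had log2 values of at least 4 on every array, and Fbp1, a different gene from fbp, was at 2.32 throughout. The log2 summed level of the list was 16.49 and 16.51 in the knockout against 16.4 and 16.43 in w1118, and 16.35 and 16.27 under overexpression against 16.44 and 16.47 in the tim-gal4 control (ZT16 and ZT4). This sum is dominated by the yolk protein genes, of which Yp1 lay between 14.84 and 14.89, at the top of each array's range, so it says little about how much fat body RNA was present. Other members moved in different directions. The storage protein gene Lsp2 read 12.76 and 12.37 in the knockout against 11.33 and 10.36 in w1118, and 6.85 and 5.83 under overexpression against 9.45 and 9.72 in the tim-gal4 control. The fatty acid synthase gene FASN1 read 12.48 and 12.68 in the knockout against 12.69 and 12.59 in w1118, and 11.68 and 11.83 under overexpression against 12.46 and 12.69 in the tim-gal4 control. The lipase gene bmm read 7.79 and 7.42 in the knockout against 7.84 and 7.32 in w1118, and 9.13 and 9.1 under overexpression against 8.74 and 8.37 in the tim-gal4 control. The part of these genes in the Pepck1 differences was not tested, and in whole-head RNA a smaller fat body and less RNA per fat body cell cannot be told apart. The log2 sum of 9 muscle genes was 12.53 and 11.51 in the knockout against 11.79 and 12.05 in w1118, and 11.74 and 11.7 under overexpression against 11.94 and 11.09 in the tim-gal4 control. The 12.53 and the 11.94 come from the 2 arrays with body-tissue markers, so they are not strain differences in head muscle alone. There fln, TpnC4 and Act88F read 7.59, 8.55 and 7.56 in the knockout and 6.89, 7.15 and 5.05 in the tim-gal4 control. On every other array these genes read at most 3.33. Whether the muscle signal bears on the glycolytic genes was not tested.

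Some markers of 2 other cell types also moved with strain. The log2 sum of 7 hemocyte genes was 9.24 and 9.44 in the knockout against 8.69 and 8.43 in w1118, and 10.21 and 10.07 under overexpression against 10.25 and 10.4 in the tim-gal4 control. This sum was thus higher in the knockout than in w1118 and highest in both yw strains, but its genes did not all move alike. PPO1 and PPO2 followed the sum, and NimC1 was above 4 in both yw strains alone. Hml was about as high in the knockout as in the yw strains, and eater was highest in the knockout. The gene lz went the other way, at 5.56 and 4.8 in the knockout against 5.98 and 5.16 in w1118. It was at most 4.5 in the yw strains. The gene He was below 4 throughout. On each array 5 or 6 of the 7 genes were at 4 or above. The log2 sum of 6 glial genes was 12.43 and 12.67 in the knockout against 12.8 and 12.83 in w1118, and 12.4 and 12.31 under overexpression against 12.16 and 12.12 in the tim-gal4 control. Of these, repo, the defining transcription factor of glia, read 5.51 and 6.7 in the knockout against 8.55 and 8.75 in w1118, and 7.75 and 7.73 under overexpression against 7.79 and 8.14 in the tim-gal4 control. The other glial genes were lower in the knockout than in w1118 by far less. Among them moody read 7.84 and 7.93 against 7.86 and 8.09, and wrapper 6.11 and 6.18 against 6.8 and 6.55. Most of the sum came from Gs2, at 12.12 and 12.3 in the knockout against 12.42 and 12.4 in w1118. The part of these hemocyte and glial genes in the sugar gene differences was not tested.

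The rest of sugar metabolism was read from 7 lists of 65 genes, of which 49 were matched on the array and 38 passed the filter. In the knockout 1 of the 38 rose and 0 fell, beside 1.58% of all probe sets called. The gene that rose was Men, the malic enzyme that makes NADPH from malate. It read 10.89 and 10.91 in the knockout against 9.97 and 9.74 in w1118 (difference 1.05, SE 0.14, adjusted p = 0.0408 in limma). This call was lost with no filter on low values and with 1 value per gene. It was also lost with only the 4 arrays of this comparison and whenever any 1 of the 8 arrays was left out. Among the largest in their lists without a call were the sodium-coupled transporter gene SLC5A11 (1.13, adjusted p = 0.0581), the glucose phosphate mutase gene Pgm1 (0.50, 0.116), the insulin receptor gene InR (-0.64, 0.143) and Gpdh1, which makes glycerol-3-phosphate (0.38, 0.219). The glucosidase gene tobi was not called either (adjusted p = 0.0775 in limma), at 9.87 and 6.73 in the knockout against 2.44 and 2.65, near background, in w1118. With both arrays that held body-tissue markers left out, no gene of these lists was called in any of the strain comparisons. The knockout and the tim-gal4 control then have 1 array each, so that fit cannot decide whether the calls rest on body tissue.

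Under overexpression 8 of the 38 rose, 6 fell and 24 were not called, beside 14.3% of all probe sets higher and 6.18% lower. These 14 calls depended on the arrays fitted. They numbered 5 with no filter, 7 without either knockout array and 0 with only the 4 arrays of this comparison. Fewer also remained when any array of the strains compared was left out. In lower glycolysis 3 of 7 rose, namely Gapdh1 (0.89, SE 0.13, adjusted p = 0.0128 in limma), Gpdh1 (0.58, SE 0.10, 0.0210) and the enolase gene Eno (0.51, SE 0.13, 0.0486), while the triose phosphate isomerase gene Tpi fell by 0.51 (SE 0.10, 0.0262). In the pentose phosphate path, which feeds NADPH and ribose synthesis, 2 of 4 rose and 1 fell. The ribose phosphate isomerase gene Rpi read 8.29 and 8.64 under overexpression against 6.76 and 6.86 in the tim-gal4 control, a difference of 1.65 (SE 0.12, adjusted p = 0.0034 in limma). The transaldolase gene Taldo read 12.03 and 12.17 against 10.44 and 10.86 (1.45, SE 0.14, 0.00595). The lactonase gene Pgls, an early step of the same path, read 6.48 and 6.84 against 8.09 and 8.09 (-1.43, SE 0.13, 0.00531). In all 3 genes the overexpression arrays also lay outside the range of both w1118 and the knockout. This is common, since both overexpression arrays were above all of the other 6 for 22.0% of all probe sets and below them for 10.7%.

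Calls in the other lists were fewer. SLC5A11 rose by 0.95 (1 of 4 transporters) and Mdh1, cytosolic malate dehydrogenase, by 0.52 (1 of 5 genes of the pyruvate and malate steps). Of 7 genes of sugar sensing and hormone response 2 fell. They were AkhR, the receptor of the sugar-mobilizing adipokinetic hormone (-0.85, adjusted p = 0.0210 in limma), and the nuclear receptor gene ERR, which promotes glycolytic genes in fly larvae (-0.60, 0.0450). None of 4 genes of glycogen turnover was called, with the branching enzyme gene AGBE at 0.64 (adjusted p = 0.0797 in limma). Of 7 digestive sugar enzymes 2 fell and 1 rose. The maltase gene Mal-B2 fell by 1.32 (SE 0.22, adjusted p = 0.0183 in limma). The gene tobi fell to 2.65 and 2.82, near background, under overexpression, against 9.26 and 6.57 in the tim-gal4 control (adjusted p = 0.0238), and the ZT16 control array is one of those with body-tissue markers. Mal-B1 was higher, at 5.16 and 4.78 against 4.05 and 3.64 (adjusted p = 0.0380). For tobi and Mal-B1, which passed the filter through the strains in which they are high, the size of the difference is not quantitative. In w1118 against the tim-gal4 control 1 of the 38 was higher and 9 were lower, beside 19.9% of all probe sets higher and 11% lower. Among the lower were Men (-0.80), Pgm1 (-0.83), SLC5A11 (-0.76), AkhR (-0.77) and Mal-B2 (-1.91, adjusted p = 0.00519 in limma). The gene tobi was also lower, at 2.44 and 2.65 in w1118, near background, against 9.26 and 6.57 in the tim-gal4 control (adjusted p = 0.0157 in limma).

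**Figure D3:**
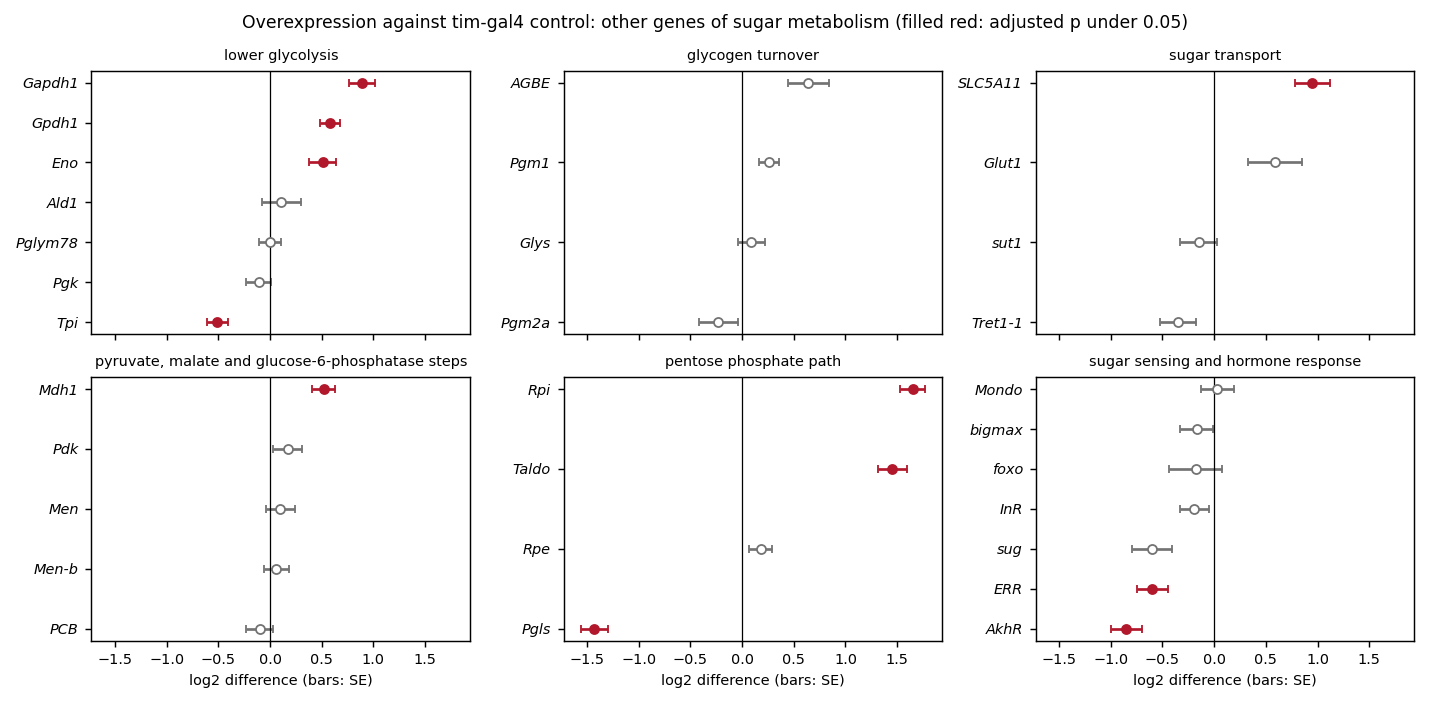
Log2 difference and standard error between overexpression and the tim-gal4 control for the other genes of sugar metabolism that passed the filter, by list, without the digestive enzymes; filled red points have an adjusted p under 0.05. Rpi at 1.65, Taldo at 1.45 and Pgls at -1.43 lie farthest from 0.

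The transcripts most like Pepck1 were sought among 3212 other probe sets that carried 1 symbol and ranged over at least 1 log2 unit. The highest Pearson correlations over the 8 arrays were those of CG32195 (0.973), CG3513 (0.967), CG11741 (0.962), frj (0.945), GstT3, a glutathione transferase (0.944), and D2hgdh, which oxidizes D-2-hydroxyglutarate (0.944). They are a description, since the arrays are pairs from 4 strains and the genes were picked as the highest of many. All 6 had higher values on the 4 arrays of the knockout and the tim-gal4 control than on the other 4. In CG3513 these were 5.76 and 5.6 in the knockout against 3.79 and 3.19 in w1118, and 3 and 2.72 under overexpression against 6.76 and 6.12 in the tim-gal4 control. Of the sugar genes with such a range, Hex-C came closest (0.757, rank 58) and Pfk was the most opposed (-0.661).

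**Figure D4:**
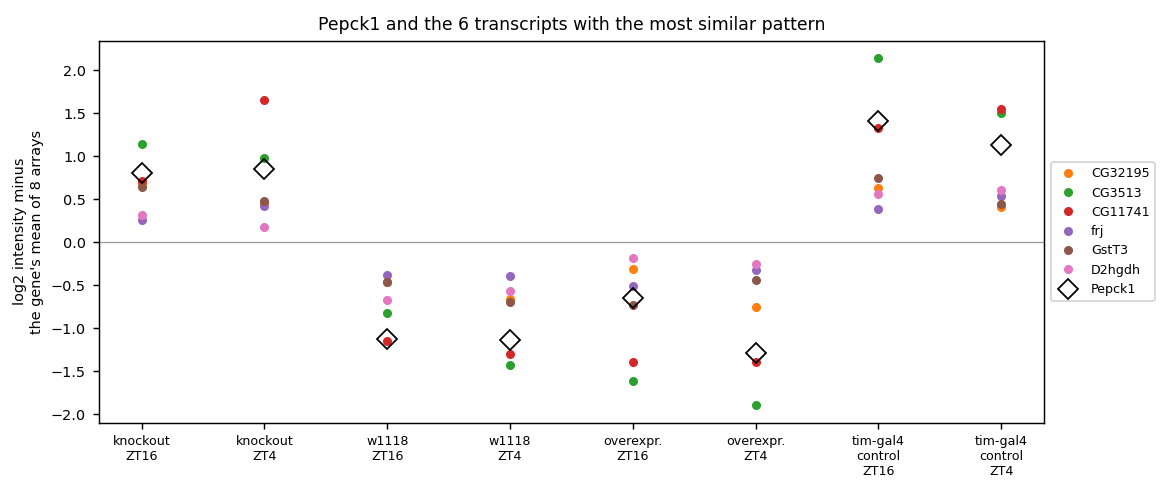
Log2 intensity minus each gene's own mean over the 8 arrays, for Pepck1 (open diamonds) and the 6 genes with the highest correlation to it, by strain and time. All 7 lie above 0 on the knockout and tim-gal4 control arrays and below 0 on the w1118 and overexpression arrays.

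Time of day was compared over the 4 strains. None of the 10 sugar genes was called between ZT16 and ZT4 by limma, where 0.373% of all probe sets were called, 0.157% as higher and 0.217% as lower. An unadjusted p under 0.05 was found for 4 of the 10 (Pepck2, Hex-A, Pfk and Pgi) and for 16.5% of all probe sets. Pfk, Pgi and Hex-A were lower at ZT16 in every strain, as were 20.9% of all probe sets. For Pfk the change was -0.44 in the knockout, -0.51 in w1118, -0.41 under overexpression and -0.14 in the tim-gal4 control (fitted difference -0.38, SE 0.09, adjusted p = 0.182 in limma). Pgi changed by -0.27 (SE 0.07, adjusted p = 0.204) and Hex-A by -0.31 (SE 0.09, 0.199). Pepck2 was higher at ZT16 in every strain, as were 6.78% of all probe sets, by 0.52 (SE 0.15, 0.212) but near background in most.

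Pepck1 itself differed between ZT16 and ZT4 by -0.04 in the knockout and 0.01 in w1118, and by 0.63 under overexpression and 0.28 in the tim-gal4 control. The gene fbp was lower at ZT16 by 0.31 in the knockout, 0.35 in w1118 and 0.14 in the tim-gal4 control and higher by 0.31 under overexpression. Each manipulated strain's change between the times was then set against that of the remaining 3 strains, fitted with 2 residual degrees of freedom. For the knockout limma called none of the sugar genes, and none of all 8300 probe sets, with 0 and 169 at an unadjusted p under 0.05. For overexpression none was called either, of the 10 or of all, with 1 (fbp) and 216 at an unadjusted p under 0.05. Differences in time change under overexpression were 0.86 for Hex-C (SE 0.32), 0.58 for fbp (SE 0.20), 0.55 for Pepck1 (SE 0.22) and -0.46 for Tps1 (SE 0.19), each with an adjusted p of 0.99 in limma.

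**Figure D5:**
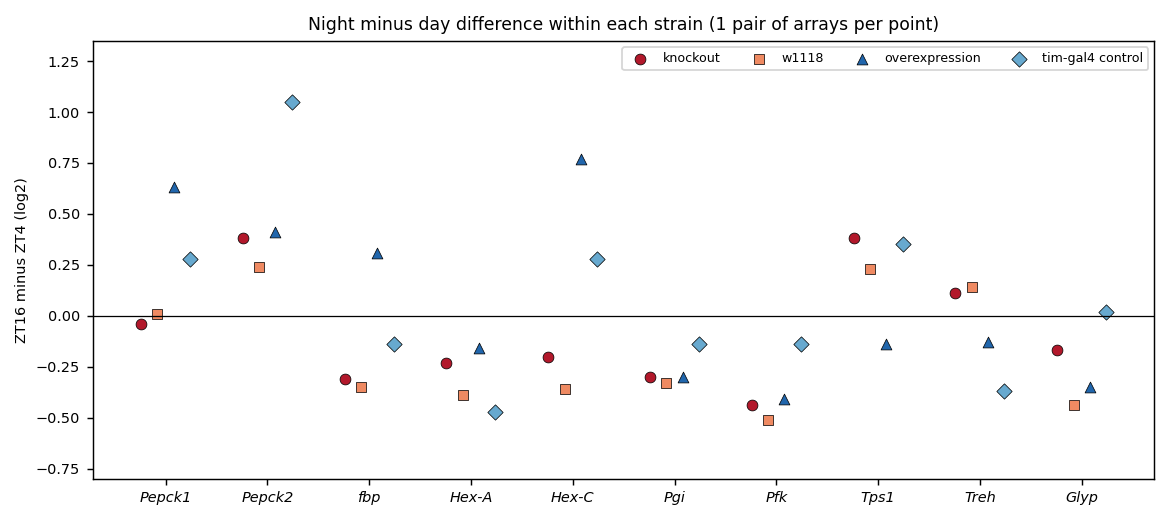
Difference between the ZT16 and the ZT4 array (log2) of each sugar gene within each of the 4 strains, 1 pair of arrays per point. Pfk, Pgi and Hex-A lie below 0 in every strain, and Hex-C lies at 0.77 under overexpression and at -0.36 in w1118.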

How the data were processed

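RNA from fly heads was measured on 8 Affymetrix Drosophila Genome 2.0 arrays, 1 per strain and time. The deposited values are log2 intensities, which the authors obtained with GCRMA, a background correction and joint normalization of arrays, per the submitters' processing notes. Its version and settings are not given in the sources used here. The 183 control probe sets were left out, and 8300 of the others reached 4 on this log2 scale in 2 or more arrays. Gene names came from the platform annotation, updated through gene IDs with a RefSeq gene table.

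Tables and figures were made with Python 3.11.15, pandas 2.3.3, numpy 2.4.6 and matplotlib 3.10.9, and models were fitted by limma 3.58.1 (R 4.3.3). The model held strain and time. All p-values are two-sided, adjusted by Benjamini-Hochberg over 8300 probe sets within each of 6 comparisons. The fit was tested on simulated data. Probe sets with the suffix s_at (fbp, Pgi, Treh) can by Affymetrix naming match more than 1 transcript. With 1 array per condition, the number of arrays limits precision, and p-values measure only how time changes vary between strains. A gene whose time change truly differs between strains has a large error here.

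Named were all sugar genes, the genes of each list with the largest called difference (or the largest difference), and the 6 genes most like Pepck1. The members and lists were chosen with earlier results of these data known. The alternatives were another filter, quantile normalization, trended and robust moderation, 1 value per gene, only the arrays compared, each array left out, and 3 treatments of the arrays with body-tissue markers.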

Additional observations from a re-analysis of the deposited data

Results flagged for a closer look

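For Hex-C and Treh the single-array differences between times had opposite signs in the strains of the 2 backgrounds, although neither gene was called between ZT16 and ZT4 (adjusted p = 0.744 and 0.764 in limma). Hex-C was lower at ZT16 than at ZT4 in the knockout (-0.20) and in w1118 (-0.36), and higher under overexpression (0.77) and in the tim-gal4 control (0.28), as log2 differences between single arrays. Treh was higher at ZT16 in the knockout (0.11) and in w1118 (0.14), and lower under overexpression (-0.13) and in the tim-gal4 control (-0.37). The difference between the backgrounds was not tested.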

How the results depend on the processing

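The 11 called differences of sugar genes kept their sign in all 176 recomputations, and 77 of these were no longer called. In several alternatives the sign could not change. Another filter, another moderation, 1 value per gene, dropped probe sets or a left-out array of a strain not compared leaves the fitted difference as it was. Calls of sugar genes in the knockout, overexpression and control comparisons numbered 1, 5 and 5. With no filter they were 0, 2 and 2, after dropping both arrays with body-tissue markers 0, 0 and 0, and with only the 4 arrays compared 0, 0 and 1. Leaving out 1 array gave 0 to 1, 1 to 5 and 1 to 4. The time comparisons had 0 in every alternative. Calls over all probe sets ranged from 0 to 296 (131 as reported) in the knockout, 0 to 2263 (1698) under overexpression, 0 to 3231 (2567) between the controls and 0 to 292 (31) for time. They ranged from 0 to 357 and 0 to 381 (0 and 0) for the time change of the knockout and of overexpression. Calls among the 38 other genes ranged from 0 to 3 (1), 0 to 15 (14), 0 to 14 (10) and 0 to 2 (0) in the first 4 of these, and from 0 to 5 for both time changes (0 and 0). Without the 2 arrays the time change of the knockout could not be fitted, and that of overexpression had no residual degrees of freedom and was not tested. The causes were not tested.

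Signs changed for 33 small, uncalled differences. When each array was left out in turn, the knockout difference ranged from -0.14 to 0.04 for Pfk and from -0.26 to 0.38 for Hex-C, the ZT16 difference from -0.13 to 0.04 for Treh and from -0.09 to 0.28 for Hex-C, and that of Treh between the controls from -0.26 to 0.15. The time change of the knockout ranged from -0.35 to 0.06 for Pepck2, -0.17 to 0.02 for Pfk, -0.08 to 0.02 for Pgi and -0.01 to 0.23 for Glyp. That of overexpression ranged from -0.3 to 0.1 for Pepck2, -0.12 to 0.07 for Pfk and -0.09 to 0.01 for Pgi. Without the 2 arrays, and also with a model term for them, Tps1 became -0.04 in the knockout and Treh 0 between times. With that term the time change of the knockout became -0.19 for Glyp, and that of overexpression 0.18 for Pepck2, 0.1 for Pfk, 0.02 for Pgi and 0.09 for Glyp. After quantile normalization that of overexpression became 0.01 for Pepck2.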
